A study of Mus musculus with 12 samples.

Results

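Retinoic acid was compared with no treatment in explants of femoral head cartilage from TS-4/5∆cat mice, and the comparison covered every array of both treatments, 8 of the 12 arrays in the study. The other 4 arrays held explants given IL-1α at 10 ng/mL, which entered the model and shared in its estimate of the spread. All explants, treated and untreated, came from 21-day-old mice that carry in-frame deletions of exon 4 of Adamts4 and exon 3 of Adamts5, so that both enzymes lack their catalytic domain. Retinoic acid was given at 10 µM for 3 days. Each treatment had 2 arrays from a line named Donut, labelled batch 1, and 2 from a line named Gertrude, labelled batch 2. Line and batch are the same division of the arrays and cannot be told apart. The labels describe hips cultured 4 to a well after a day in serum, whereas the methods of the study describe serum-free culture and 3 separate mice per treatment. It is not given which arrays share a mouse, so p-values measure only the spread between these arrays, which may be technical. No array came from mice without the deletions, so the levels of Adamts4 and Adamts5 are no check of the genotype.

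Retinoic acid enters the nucleus and binds retinoic acid receptors, which sit on DNA as pairs with retinoid X receptors and switch on target genes. The receptor pairs favour direct repeats of a 6-base half-site. Many targets limit the signal itself, such as the CYP26 enzymes that break retinoic acid down. In cartilage explants retinoic acid is used as a catabolic agent that sets off the loss of aggrecan, the large proteoglycan that holds water in the tissue, and the study used the arrays to look for the transcripts that accompany this loss when ADAMTS-4 and ADAMTS-5 are inactive.

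The promoters of 2 genes that rose are shown because each holds such a repeat. They are the RefSeq sequences on the strand of the gene, 250 bases before to 50 bases after the annotated start (build GRCm38.p6), with the half-sites in capitals. That of Cyp26a1 is at chr19:37697558-37697857 (plus strand) and that of Rarb at chr14:16575427-16575726 (minus strand).
Cyp26a1: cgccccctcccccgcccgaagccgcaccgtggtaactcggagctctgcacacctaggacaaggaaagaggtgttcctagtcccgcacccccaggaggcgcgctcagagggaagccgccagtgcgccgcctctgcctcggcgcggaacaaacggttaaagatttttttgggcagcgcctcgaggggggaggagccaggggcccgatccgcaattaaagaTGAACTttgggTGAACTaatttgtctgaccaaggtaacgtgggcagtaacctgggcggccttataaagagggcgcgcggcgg
Rarb: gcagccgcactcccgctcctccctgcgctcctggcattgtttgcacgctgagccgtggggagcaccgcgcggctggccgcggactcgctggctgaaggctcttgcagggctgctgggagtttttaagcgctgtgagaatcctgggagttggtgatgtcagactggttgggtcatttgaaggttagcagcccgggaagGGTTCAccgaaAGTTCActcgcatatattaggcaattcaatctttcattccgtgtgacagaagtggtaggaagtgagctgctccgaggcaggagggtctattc
The search took any 2 of the half-sites AGGTCA, its variant AGTTCA, the form GGGTCA and the form GGTTCA in the same direction with 5 or 2 bases between them, on both strands. In Rarb the pair starts at position -53 from the annotated start and reads along the gene. In Cyp26a1 the pair starts at position -32 and reads on the opposite strand. Both pairs have 5 bases between the half-sites, a spacing found in 32 of 32851 RefSeq promoters (0.0974%), and 88 promoters (0.268%) had the spacing of 2. Of 18 genes listed as targets of retinoic acid, 13 had a promoter in the table and these 2 had a pair. Among the 12 genes with the largest rises 9 had a promoter, and of those only Cyp26a1 had a pair. A match describes these letters and does not show binding, and no match says only that they are not in this window.

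Every level below is a background-corrected and quantile-normalized probe intensity on a log2 scale, and a difference of 1 between levels is a factor of 2. Array values are given in the order batch 1 replicates 1 and 2, then batch 2 replicates 1 and 2. Of 46632 probes, 18200 were kept for detection on at least 4 of the 12 arrays, and they stand for 14317 genes. The number of probes detected was 14467 to 17144 on the retinoic acid arrays and 14959 to 19485 on the untreated arrays, the highest on untreated batch 2 replicate 2. Across probes, the correlation was 0.983 to 0.994 between replicate arrays within a batch, 0.932 to 0.941 between retinoic acid and untreated arrays within a batch, and 0.868 to 0.878 when like-treated arrays of batch 1 and batch 2 were compared. The highest normalized value was 14.24, and the size of a difference is not exact where a group mean is above 13.

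At an adjusted p under 0.05, limma called 2667 genes higher and 2590 lower with retinoic acid, which is 18.6% and 18.1% of the genes tested. Changes of more than 2-fold were found for 651 genes that rose (4.55%) and 747 that fell (5.22%). More than 8-fold changes were found for 22 rises and 53 falls. Called genes had the same sign in both batches in 5252 of 5257 cases, and all 1398 genes over 2-fold did. With batch 1 alone 1382 of these 1398 were called in the same direction, with batch 2 alone 1384, and with no term for batch 1107. The calls rest on both batches, so agreement between them is favoured by the choice of genes and is no separate replication. Without overlap between the 4 retinoic acid and 4 untreated arrays were 2584 genes (18.0%). The median difference of all genes was 0.01 on the log2 scale, and it moved to 0.13 when arrays were only scaled to a common median and not quantile-normalized. With that scaling 65.1% of the called genes were higher with retinoic acid, against 50.7% with quantile normalization.

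**Figure D1:**
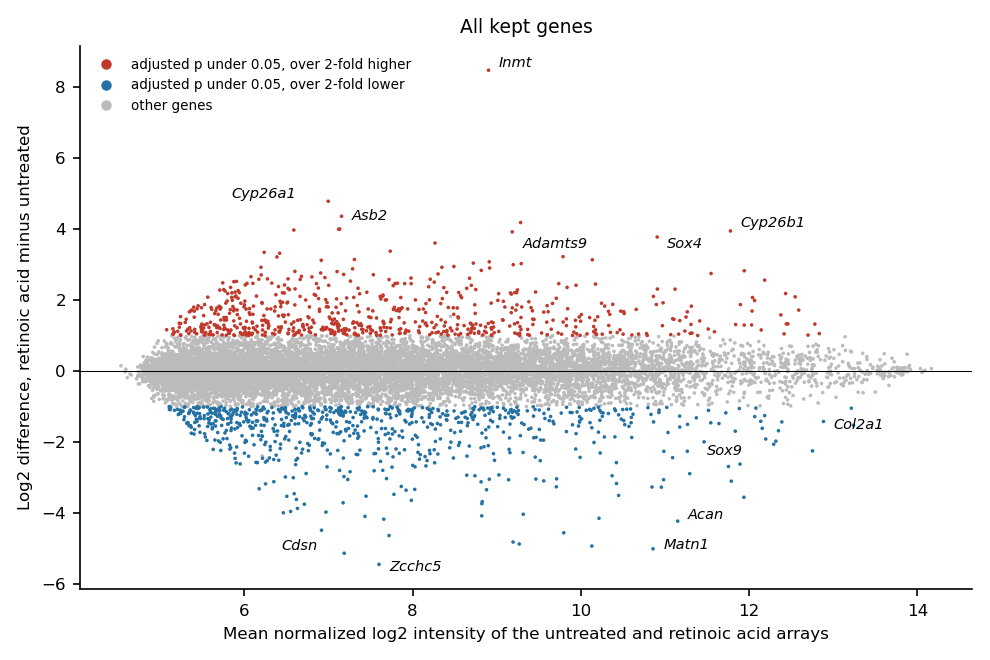
Each point is 1 of the 14317 kept genes, with the mean log2 level of the 8 arrays on the x axis and the log2 difference of retinoic acid minus untreated on the y axis. Red points (651 genes) rose and blue points (747 genes) fell more than 2-fold at an adjusted p under 0.05; Inmt stands above all others at 8.47.

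Among known target genes of retinoic acid, Cyp26a1, Cyp26b1, Rarb and Dhrs3 rose. Of 18 genes on that list 12 were kept, 7 rose (18.6% of all genes did), 1 fell and 4 were not called, and the median difference over the 12 was 1.26 on the log2 scale beside 0.01 for all genes. Of the 7 that rose, Cyp26a1, Stra6, Rarb and Dhrs3 passed the filter on detection only because of their retinoic acid arrays. Passing in this way favours a rise, so their calls are no separate evidence. Of all genes, 932 passed in this way and 246 of these rose. Of the other 8 kept genes on the list 3 rose and 1 fell. The probes for Crabp2 and Lrat were not detected on any untreated or retinoic acid array.

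Cyp26a1 encodes the main enzyme that breaks down retinoic acid. Its log2 levels were 4.64, 4.61, 4.65 and 4.53 on the untreated arrays, where the probe was not detected, and 9.06, 9.14, 9.79 and 9.55 with retinoic acid. All 4 treated arrays were far above the 4 untreated ones in both batches, and the rise was at least 19.2-fold (adjusted p = 6.18e-10, limma). Its second kept probe also rose, by 3.20 on the log2 scale. The related enzyme Cyp26b1 was already bright without treatment, with log2 levels of 9.44, 9.25, 10.23 and 10.31, and reached 13.28, 13.30, 14.18 and 14.24. The groups were well apart in each batch by 3.94 on the log2 scale (SE 0.14, adjusted p = 6.07e-10, limma), a size that is not exact so near the highest value.

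Rarb encodes the retinoic acid receptor that is itself induced by retinoic acid. Its untreated log2 levels were 4.67, 4.73, 4.61 and 4.93, with detection on only 1 of 4 arrays, and the treated levels were 6.65, 6.33, 9.0 and 8.64. The groups did not overlap, and the treated arrays of batch 2 stood well above those of batch 1 while the untreated arrays of both batches lay near the background. The log2 difference was 2.92 (SE 0.39, adjusted p = 7.6e-05, limma), made up of 1.79 in batch 1 and 4.05 in batch 2 (adjusted p of the difference between batches 8.06e-04, limma). Dhrs3, which turns retinaldehyde back into retinol, rose from log2 levels of 5.02, 5.38, 4.85 and 4.78 to 7.17, 7.23, 6.38 and 6.23. This rise of 3.36-fold (adjusted p = 8.24e-07, limma) was without overlap.

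Other rises on the list were Stra6, the cell surface receptor for retinol-binding protein, at least 2.15-fold, and Tgm2, a transglutaminase that cross-links proteins, by 1.46 on the log2 scale. Rarres1, known in other tissues as a gene induced by retinoids, went the other way. Its log2 levels were 9.49, 9.69, 9.55 and 9.25 untreated and 7.37, 7.05, 6.41 and 6.46 with retinoic acid, a fall of 6.37-fold without overlap (adjusted p = 2.73e-07, limma). The early target Hoxb1 was not called, with a log2 difference of 0.18.

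**Figure D2:**
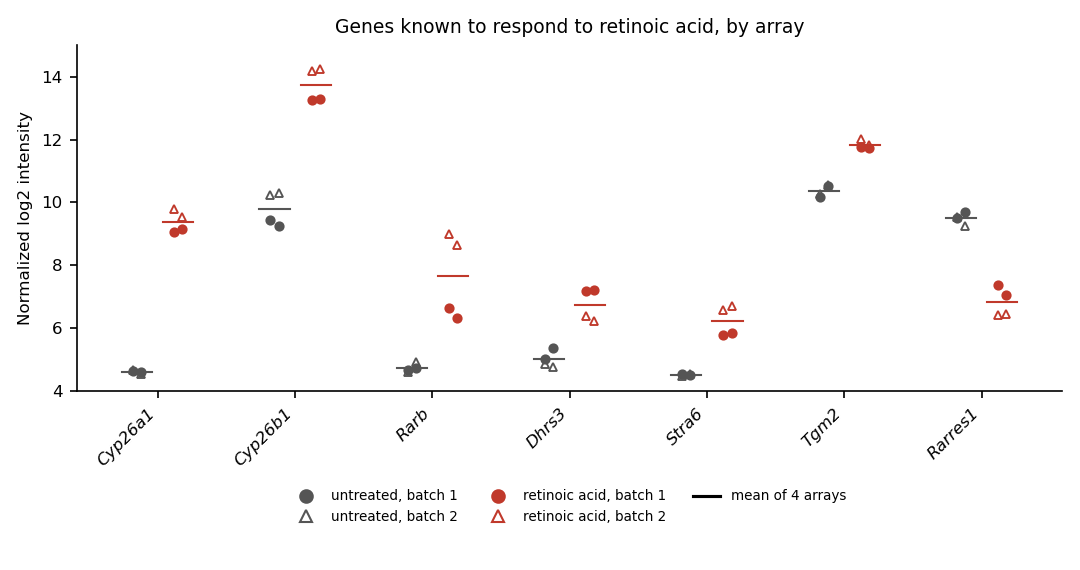
Normalized log2 intensity of 7 genes known to respond to retinoic acid on the 4 untreated (grey) and 4 retinoic acid (red) arrays; circles are batch 1, triangles batch 2 and lines the mean of 4 arrays. Cyp26a1 and Cyp26b1 separate widely in both batches, Rarb reaches 8.64 and 9.0 in batch 2 but 6.33 and 6.65 in batch 1, and Rarres1 is lower with retinoic acid.

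Of the receptors and the enzymes that make retinoic acid, 16 of 22 listed genes were kept. Among them 2 rose (12.5%, beside 18.6% of all genes) and 5 fell (31.2%, beside 18.1%), 2 of those more than 2-fold. Rarg was present on all arrays and was not called, with a log2 difference of 0.03 (SE 0.21). Rxra, a retinoid X receptor, fell by 0.57 on the log2 scale (adjusted p = 0.0372, limma), and the probe for Rara was not detected on the 8 arrays. The call for Rxra was lost when any 1 of 5 arrays was left out, namely retinoic acid batch 1 replicate 1 or 2, retinoic acid batch 2 replicate 1 and untreated batch 2 replicate 1 or 2 (adjusted p = 0.0869 to 0.144, limma). Among the falls were Rbp4, the plasma carrier of retinol (-1.75), Rdh5 (-1.04) and Aldh1a3 (-0.84), the latter 2 enzymes on the route to retinoic acid, all as log2 differences. Ncoa3, a coactivator of nuclear receptors, rose by 0.86.

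The largest rise on the arrays was that of Inmt, a methyltransferase that acts on indoleamines such as tryptamine. Untreated log2 levels were 4.56, 4.48, 4.66 and 4.97, detected on 1 of 4 arrays, and treated levels were 13.02, 13.02, 13.22 and 13.29. This took the gene from about background to among the brightest on the arrays, a log2 difference of 8.47 (SE 0.12, adjusted p = 1.16e-13, limma) with 8.50 in batch 1 and 8.44 in batch 2. These sizes are not exact, since the untreated levels were near background and the treated mean was above 13. Without background correction the log2 difference was 7.67. Inmt passed the filter only because of its retinoic acid arrays, which favours a rise. With IL-1α the log2 difference of Inmt from untreated was -0.04.

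The other large rises covered regulators, enzymes and growth factor binding proteins. Asb2, a subunit of a ubiquitin ligase, rose 20.5-fold, Gdpd5, a glycerophosphodiester phosphodiesterase, 18.1-fold, and Igfbp2, which binds insulin-like growth factors, at least 10.9-fold. Igfbp2, like Cyp26a1, passed the filter only through its retinoic acid arrays, which favours a rise. Adamts9, a proteinase of the ADAMTS family, rose 15.1-fold. Sox4, a transcription factor of the SRY-box family, went from log2 levels of 9.58, 9.82, 8.23 and 8.44 to 13.20, 13.18, 12.38 and 12.42. Its groups did not overlap although batch 1 was the brighter in both treatments. Rasl11a, a small GTPase, rose 12.2-fold and Dio2, which activates thyroid hormone, 10.4-fold, with log2 differences for Dio2 of 2.32 in batch 1 and 4.43 in batch 2. The remaining 2 of the 12 largest are transcripts without a known product, 5930412G12Rik (Fzd10os in RefSeq), up 16-fold, and B230312L03Rik, up 15.9-fold. Of these, 5930412G12Rik was kept only because of its retinoic acid arrays. Each of these 2 transcripts was detected on 2 of 4 untreated arrays, so their sizes are not exact.

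The 12 largest falls included Matn1 and Acan, both on the cartilage matrix list. Matn1, a matrilin that links collagen and aggrecan, had log2 levels of 13.20, 13.35, 13.52 and 13.37 untreated and 8.38, 8.15, 8.46 and 8.43 with retinoic acid. The loss was the same in both batches, -5.01 and -5.0 on the log2 scale (adjusted p = 1.18e-10, limma). Acan, which encodes aggrecan itself, had untreated log2 levels of 13.15, 13.30, 13.13 and 13.47 and treated levels of 9.06, 9.13, 9.05 and 8.92. No array overlapped, the log2 difference was -4.22 (SE 0.15, adjusted p = 6.44e-10, limma), and a second Acan probe gave -4.34. IL-1α also lowered Acan, with a log2 difference of -1.56 from untreated, and its level was lower still with retinoic acid (log2 difference of retinoic acid minus IL-1α -2.66, adjusted p = 3.24e-08, limma).

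Zcchc5 (Rtl3 in RefSeq), a gene derived from a retrotransposon, fell furthest. Its untreated log2 levels were 9.70, 9.77, 10.75 and 11.06, and with retinoic acid they were 4.58, 4.69, 5.26 and 4.99, with detection on 1 of 4 arrays. Cdsn, corneodesmosin, an adhesion protein best known from skin, and Cmtm5, a membrane protein of the MARVEL family, went below detection on all 4 treated arrays, falling at least 23.6-fold and at least 15.6-fold. Panx3, a channel protein of hypertrophic chondrocytes and osteoblasts, fell 23.5-fold and Pcolce2, which enhances procollagen processing, 28.1-fold. The list of the 12 largest falls was completed by 1500015O10Rik (Ecrg4 in RefSeq, a secreted peptide precursor, 30.4-fold), Fxyd3 (a regulator of the sodium pump, 29.2-fold), Itih5l (24.8-fold), Col27a1 (a fibrillar collagen of cartilage, 18.0-fold) and Scrg1 (a secreted protein of cartilage, 17.7-fold). Itih5l, which RefSeq names as a pseudogene, also fell with IL-1α, where its log2 difference was -4.60. Col27a1 was detected on 2 of 4 treated arrays, so the size of its fall is not exact.

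No cartilage matrix gene rose. Of 34 listed genes 29 were kept, 24 fell (18.1% of all genes did), 21 of them more than 2-fold, and 5 were not called. In bulk samples such as these, fewer cells of a type and less RNA per cell cannot be told apart. The median log2 difference was -2.25, and 23 of the 29 had no overlap between the 4 retinoic acid and 4 untreated arrays, beside 18.0% of all genes. Col2a1, the main collagen of cartilage, had untreated log2 levels of 14.01, 13.66, 13.08 and 13.62 and treated levels of 11.95, 11.82, 12.41 and 12.52. It fell by 1.42 on the log2 scale (SE 0.19, adjusted p = 6.83e-05, limma), with log2 differences of -1.96 in batch 1 and -0.89 in batch 2. This probe is near the top of the range, so these sizes are not exact. Its 2 other kept probes fell further, 1 equally bright (-1.84) and 1 dimmer, which went from a log2 mean of 11.83 to 6.90 (-4.93, adjusted p = 6.53e-11, limma).

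The collagens that share its fibrils also fell. Col9a1 had a log2 difference of -2.89, Col9a2 of -2.31, Col11a1 of -2.83 and Col11a2 of -1.69, whereas Col9a3, read at the edge of detection, was not called (-0.19). Among the proteins that bind fibrils or aggrecan, Hapln1, the link protein, had untreated log2 levels of 8.39, 8.27, 11.41 and 10.69 and treated levels of 5.01, 4.96, 7.84 and 7.63. Treated arrays were about the same distance below untreated ones in both batches, by -3.34 and -3.32, although the batches themselves stood far apart and only 2 of the 4 treated arrays detected it. Comp, which joins collagen fibrils, fell by 2.25 on the log2 scale, and the log2 differences of the small leucine-rich proteoglycans Omd, Fmod and Lum were -4.03, -2.88 and -2.22. Decorin (Dcn), of the same family, was not called, with a log2 difference of -0.24 (SE 0.12), and Ogn was not called either (-0.21). Of the 4 other Dcn probes 1 fell (-1.31) and 3 were not called.

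Cytl1 and Clec3a, secreted proteins of cartilage, had log2 differences of -3.55 and -3.35. Ucma, listed on the array as 1110017I16Rik and made by chondrocytes of the upper growth plate, was undetected on all 4 treated arrays and at least 6.25-fold lower, from untreated log2 levels of 6.03, 6.08, 9.82 and 9.41. Batch 1 had little of it to lose. Prg4, lubricin, the lubricant of the joint surface, fell by 0.59 on the log2 scale by its brightest probe, and its other probe had a log2 difference of -2.28 (adjusted p = 2.23e-05, limma). Retinoic acid and IL-1α differed in 25 of the 29 genes, 22 of them lower with retinoic acid, where 32.5% of all genes differed between the treatments in either direction.

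**Figure D3:**
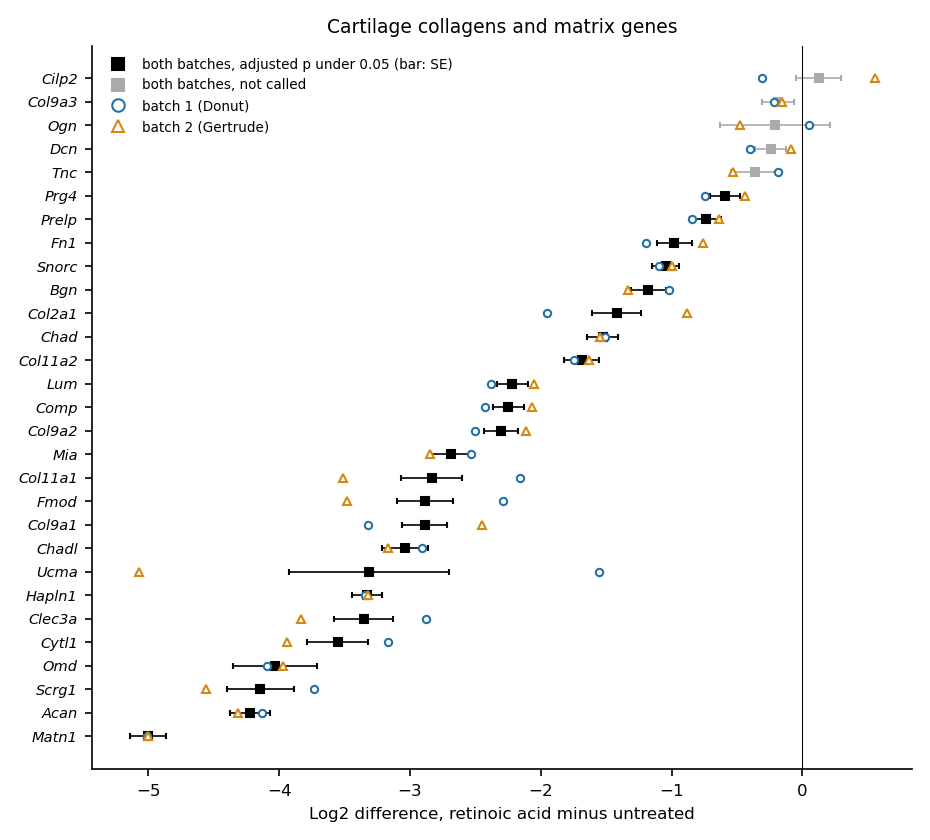
Log2 difference of retinoic acid minus untreated for the 29 kept genes of the cartilage matrix list; squares with standard error bars are the fit over both batches, black where the adjusted p was under 0.05, and open symbols are the values within each batch. The 24 called genes all lie left of 0, from Prg4 at -0.59 to Matn1 at -5.0, and Ucma, Col2a1, Col11a1 and Fmod show the batches apart.

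Other collagens and fibrous matrix genes went both ways, with 12 higher (25.5%) and 23 lower (48.9%) of 47 kept genes, beside 18.6% and 18.1% of all genes, and a median log2 difference of -0.34. The 3 genes of type VI collagen, which surrounds chondrocytes, fell, with log2 differences of -1.68 for Col6a1, -1.94 for Col6a2 and -2.26 for Col6a3. Col3a1 (-1.94), Col5a1 (-1.73), Col5a2 (-1.45), Sparc (-2.01) and Thbs3 (-2.70) fell as well. Rises were found for Fbln1, a fibulin of elastic fibres and basement membranes (1.72), Loxl1, a cross-linking enzyme of elastin (1.67), and Ecm1 (1.11), all on the log2 scale.

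Chondrocyte transcription factors changed in both directions. Of 17 kept genes 5 rose (29.4%) and 8 fell (47.1%), beside 18.6% and 18.1% of all genes. Sox9, the factor that defines chondrocytes and drives Col2a1 and Acan, had log2 levels of 13.31, 13.43, 13.01 and 12.88 untreated and 11.36, 11.39, 11.11 and 11.09 with retinoic acid. It was lower on every treated array, with a log2 difference of -1.91 (SE 0.12, adjusted p = 5.38e-08, limma) that is not exact at this brightness. Its partner Sox5 fell by 0.87 on the log2 scale, and Sox6 was not called (-0.22). Of the 3 other Sox5 probes 2 fell as well (-0.88 and -0.95) and 1 was not called (-0.17), whereas both other Sox6 probes fell (-1.44 and -1.68), all as log2 differences. Foxa3 (-2.52) and Foxa2 (-0.77), which act together in the hypertrophic programme, fell as log2 differences. Trps1 (-1.35), Shox2 (-1.40) and Mef2c (-1.57), regulators of chondrocyte proliferation and hypertrophy, were lower too, as log2 differences.

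Prrx2, a homeobox factor of limb mesenchyme, had untreated log2 levels of 7.38, 7.44, 6.65 and 6.54 and treated levels of 9.76, 9.75, 8.91 and 9.08. Its rise of 5.18-fold was alike in both batches, 2.35 and 2.40 on the log2 scale. The related Prrx1 rose by 0.79 (0.39 and not called by its other probe), Runx1, of the family that also holds Runx2, by 1.69 and Pax1, a factor of the developing vertebral column, by 0.90 on the log2 scale, and the Runx2 probe was not kept. With each array scaled to one median, 3 of the 17 genes rose in place of 5, and again 8 fell.

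Of 20 kept hypertrophy and mineralisation genes 11 fell (55.0%, beside 18.1% of all genes), or 9 with each array scaled to one median, and 3 rose (15%, beside 18.6%). Col10a1, the collagen of hypertrophic chondrocytes, had log2 levels of 11.61, 11.86, 13.11 and 13.26 untreated and 9.91, 9.90, 11.10 and 10.97 with retinoic acid. Treated arrays were below untreated ones of the same batch, with log2 differences of -1.83 and -2.16. Ibsp, bone sialoprotein, fell 8.34-fold, Phex, which regulates mineralisation, 3.64-fold, and Ihh, the Hedgehog ligand of prehypertrophic cells, 3.48-fold. Vegfa, which draws vessels into cartilage, rose by 0.56, Ank, a pyrophosphate transporter, by 0.87 and Spp1, osteopontin, by 0.52 on the log2 scale. The call for Spp1 was lost without retinoic acid batch 1 replicate 1 or 2 or untreated batch 1 replicate 1 or 2 (adjusted p = 0.0826 to 0.109, limma). Mmp13, the collagenase of hypertrophic cartilage, was not called and was near the highest value on all arrays (log2 means 13.83 untreated and 13.99 treated). Its other kept probe, which was dimmer, rose by 1.81 on the log2 scale (adjusted p = 1.32e-06, limma).

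Of 45 listed matrix-degrading enzymes 36 were kept, 17 rose (47.2%, beside 18.6% of all genes) and 5 fell (13.9%, beside 18.1%), with a median log2 difference of 0.27. Adamts9 had untreated log2 levels of 6.95, 6.63, 7.59 and 7.72 and treated levels of 10.71, 10.66, 11.45 and 11.75. The step was alike in both batches, 3.89 and 3.94 on the log2 scale. Htra1, a secreted serine proteinase that cleaves matrix proteoglycans, rose from 9.92, 10.34, 10.27 and 10.18 to 12.85, 12.88, 13.06 and 12.89 (6.7-fold, adjusted p = 1.67e-09, limma). Cemip, which takes part in hyaluronan breakdown and is listed as 9930013L23Rik, rose by 2.47 on the log2 scale, from untreated arrays of which 1 in 4 detected it, and it was kept only because of its retinoic acid arrays.

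Among the matrix metalloproteinases, Mmp11 rose by 2.35, Mmp10 by 2.16, Mmp14 by 2.07, Mmp9 by 1.58 and Mmp2 by 1.01 on the log2 scale. Mmp3, stromelysin-1, was an exception. Its log2 levels were 13.25, 13.45, 13.49 and 13.11 untreated and 12.01, 12.05, 10.58 and 10.41 with retinoic acid, a fall in both batches that was larger in batch 2 (-2.80) than in batch 1 (-1.32; adjusted p of the difference between batches 0.00166, limma). Mmp12 (-0.89) and the procollagen proteinase Adamts3 (-1.01) fell too, as log2 differences. The summed markers of macrophages and osteoclasts, cells that also make Mmp9, were higher on all treated arrays, and their part in its rise was not tested. Adamts15 rose by 1.46 and Adamts1 by 1.30 on the log2 scale, although the retinoic acid and untreated arrays of either gene overlapped across batches. Adamts4 was not called (0.36, SE 0.17, adjusted p = 0.115, limma), and the Adamts5 probe was not detected on any untreated or retinoic acid array.

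Of 15 kept proteinase inhibitors 7 fell (46.7%, beside 18.1% of all genes), or 5 with each array scaled to one median, and 3 rose, a share near the 18.6% of all genes. Timp3, the inhibitor of ADAMTS enzymes that stays bound to matrix, had log2 levels of 12.76, 12.88, 13.44 and 13.34 untreated and 11.34, 11.41, 12.01 and 11.94 with retinoic acid. It fell by a like amount in both batches, -1.45 and -1.42 on the log2 scale (adjusted p = 3.71e-07, limma). Of its 2 other kept probes, both much dimmer, 1 fell (log2 difference -1.03, adjusted p = 0.0117, limma) and 1 was not called (0.56, adjusted p = 0.125, limma). Timp1 and Timp2 were not called, with log2 differences of 0.01 and -0.19. Serpina3n (-3.17) and Slpi (-2.41), both secreted inhibitors of serine proteinases, fell and Wfdc1 (2.03) rose, as log2 differences.

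Enzymes that build glycosaminoglycan chains changed in both directions, 7 higher (24.1%) and 14 lower (48.3%) of 29 kept. Over all genes 18.6% rose and 18.1% fell. Papss2, which makes the sulphate donor for the chains, had untreated log2 levels of 12.65, 12.19, 11.85 and 12.55 and treated levels of 10.05, 9.82, 9.71 and 9.90. It fell 5.42-fold without overlap. Xylt1, which attaches the first sugar of a chain to the core protein, went below detection on all treated arrays and was at least 3.2-fold lower. Other falls were Extl1 (-2.80), Chsy3 (listed as 4833446K15Rik, -1.73), Csgalnact1 (listed as 4732435N03Rik, -1.35, with -0.30 and no call for its other probe), Chst11 (-1.17) and the hyaluronan synthase Has2 (-1.09), all log2 differences. Chst15, listed as 4631426J05Rik, which adds a second sulphate to chondroitin sulphate, rose 3.08-fold.

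**Figure D4:**
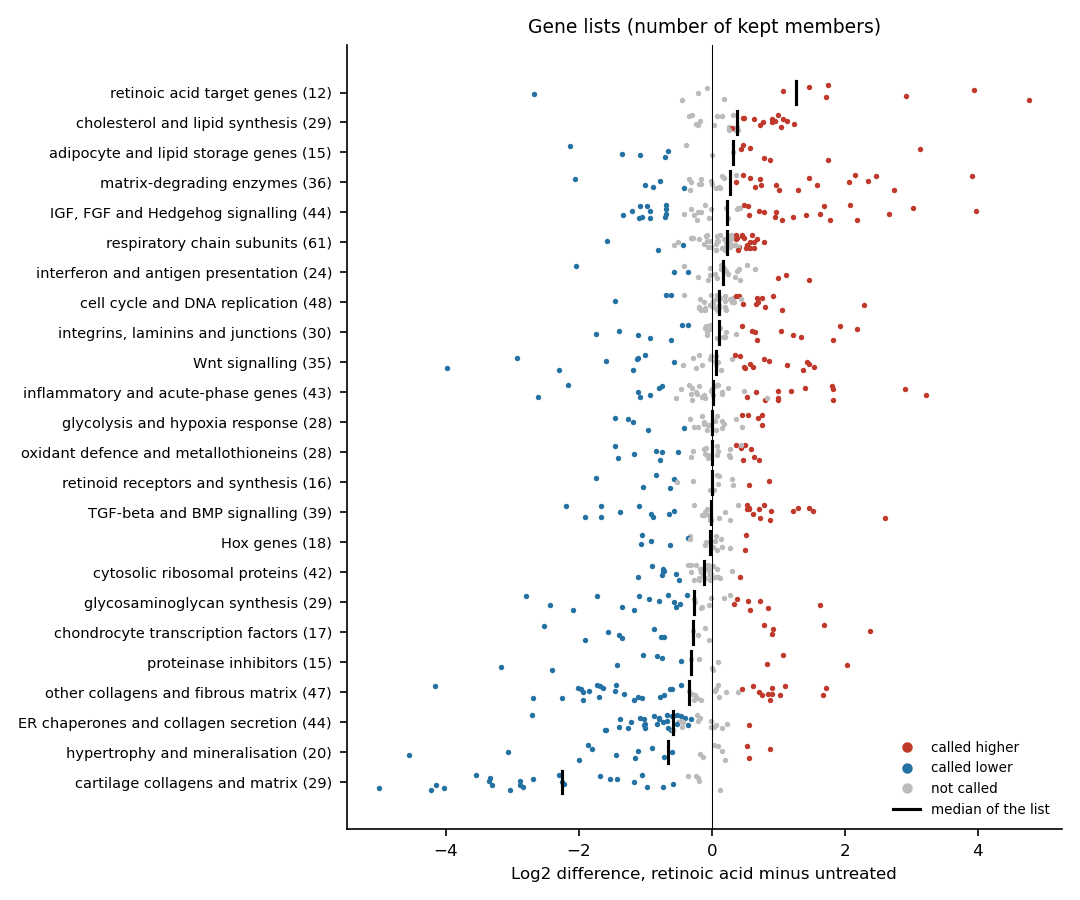
Log2 difference of retinoic acid minus untreated for the kept members of 24 gene lists, ordered by their median (black bar); the number of kept members is in brackets. Red points were called higher, blue lower and grey not called; the cartilage matrix list has the lowest median (-2.25) and the retinoic acid targets the highest (1.26).

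Wnt signalling genes moved both ways, with 13 higher (37.1%) and 9 lower (25.7%) of 35 kept, beside 18.6% and 18.1% of all genes. However, 4 of the 13 were kept only through their retinoic acid arrays, which favours a rise. Among the other 30 kept genes 9 rose and 9 fell. The falls included secreted Wnt antagonists. Sfrp5 had untreated log2 levels of 8.50, 8.81, 8.40 and 8.12 and was undetected on all treated arrays, at least 9.64-fold lower. Frzb, a Wnt antagonist named for its part in skeletal development, fell 7.63-fold and Wif1 4.92-fold. IL-1α lowered these 3 genes as well, with log2 differences of -3.55, -2.80 and -1.96, and no difference between the treatments was called for any of them (adjusted p = 0.0915, 0.617 and 0.151, limma). Antagonists did not all fall, since Sfrp1 rose by 1.43 and Dkk3 by 1.47 on the log2 scale. The ligands Wnt7b and Wnt2b were undetected without treatment, were kept only through their retinoic acid arrays, and rose at least 1.85-fold and at least 1.81-fold. Axin2, a general target of the pathway, rose by 0.86 on the log2 scale at a level close to detection, and Tcf7l2, a transcription factor of the pathway, fell by 1.11.

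Of 39 kept genes of TGF-β and BMP signalling 15 rose (38.5%) and 10 fell (25.6%), beside 18.6% and 18.1% of all genes. Bmp7 had untreated log2 levels of 7.52, 7.64, 7.33 and 6.99 and treated levels of 10.29, 10.33, 9.71 and 9.60. It rose 6.11-fold, and Id3, a target of BMP signals, 2.88-fold. The ligands Bmp3 (-1.91) and Bmp4 (-1.09) fell on the log2 scale, as did the BMP antagonists Chrd (-1.66), Grem1 (-1.38) and Nog (-0.89), while the antagonist Nbl1 rose (1.46). Tgfbi, a matrix protein induced by TGF-β, fell by 2.19.

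Of 44 kept genes of IGF, FGF and Hedgehog signalling 18 rose (40.9%) and 12 fell (27.3%), beside 18.6% and 18.1% of all genes. However, 2 of the 18 were kept only through their retinoic acid arrays. Among the other 42 kept genes 16 rose and 12 fell. Mdk, midkine, a heparin-binding growth factor first found as a gene responsive to retinoic acid, had untreated log2 levels of 7.84, 8.02, 7.59 and 7.66 and treated levels of 10.86, 11.02, 10.41 and 10.92. It rose 8.13-fold, and with IL-1α it fell, with a log2 difference of -1.27. Several IGF binding proteins rose besides Igfbp2, namely Igfbp4 by 1.69 and Igfbp3 by 1.22, and so did Igf1 by 1.06, while Igf2 fell by 0.69, all on the log2 scale. Dusp4 and Dusp5, phosphatases that shut off kinase signals, rose by 2.67 and 1.78, Fgf1 by 1.63, and Fgfr3, the receptor that restrains growth plate cartilage, fell by 1.06. The Hedgehog targets Ptch1 (-1.20) and Hhip (-1.09) fell on the log2 scale, beside the fall of Ihh. The other Ptch1 probe was not called (-0.30). Of 18 kept Hox genes 2 rose (11.1%) and 5 fell (27.8%), beside 18.6% and 18.1% of all genes. The falls included Hoxc8 (-1.07), Hoxd8 (-1.05) and Hoxd9 (-0.92), and another Hoxc8 probe was not called.

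Of 44 kept genes that fold and export collagen and other secreted proteins 29 fell (65.9%, beside 18.1% of all genes), 14 were not called and 1 rose, with a median log2 difference of -0.59. The enzymes that modify collagen chains showed the larger changes. P3h2, a prolyl 3-hydroxylase listed as Leprel1, had untreated log2 levels of 8.68, 8.70, 9.70 and 9.34 and treated levels of 6.73, 6.24, 6.28 and 6.36. Plod2, a lysyl hydroxylase (-1.61), Fkbp14 (-1.60) and Crtap (-1.40), both partners in collagen folding, and Herpud1, a gene of the unfolded protein response (-1.39), fell as well, as log2 differences. Hspa5, the main chaperone of the compartment, fell by 0.62. With each array scaled to one median, 17 of the 44 were called lower and 2 higher.

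Of 29 kept genes of cholesterol and lipid synthesis 14 rose (48.3%, beside 18.6% of all genes), 15 were not called and none was called lower. The list includes Hsd17b7 (1.24), Insig1 (1.13), Mvd (1.07) and Fdps (1.00), which serve or control the sterol pathway, and Fasn, fatty acid synthase (0.91), as log2 differences. Without untreated batch 1 replicate 1 or 2 the call for Insig1 was lost (adjusted p = 0.0578 and 0.0551, limma). Their sizes were small beside those of the matrix genes, and the median of the list was 0.38. Pdk4, a kinase that limits the use of glucose in mitochondria, had untreated log2 levels of 8.22, 8.23, 8.70 and 9.13 and treated levels of 11.13, 11.25, 12.27 and 12.15. It rose 8.76-fold, and Pparg, the regulator of fat cell genes, 3.36-fold, while Adipoq (-1.08) and Cfd (-2.13), products of fat cells, fell on the log2 scale. Among respiratory chain subunits 17 of 61 kept rose (27.9%) and 3 fell (4.92%), none of the rises reaching 2-fold (Ndufa4 highest at 0.79). Glycolysis and hypoxia genes had 5 in each direction of 28 (17.9%) and oxidant defence genes 7 in each direction of 28 (25%). Cytosolic ribosomal proteins had 1 higher (2.38%) and 8 lower (19.0%) of 42. Over all genes 18.6% rose and 18.1% fell, so the glycolysis shares and the ribosomal falls were near those of all genes. Ndrg1 (-1.18), Sod3 (-1.40) and Mt2 (-1.17) were among the falls, and IL-1α raised Sod3 and Mt2, by 2.13 and 1.68 on the log2 scale.

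Inflammatory and acute-phase genes did not move as a block, with 13 higher (30.2%) and 7 lower (16.3%) of 43 kept. Over all genes 18.6% rose and 18.1% fell. The median log2 difference of the list was 0.02. Vcam1, an adhesion molecule for leukocytes, had untreated log2 levels of 7.96, 8.14, 8.19 and 8.42 and treated levels of 11.22, 11.17, 11.81 and 11.40. It rose 9.31-fold, and the chemokines Cxcl14 and Cxcl12 rose 7.47-fold and 3.55-fold and the cytokine Il11 3.5-fold. Il1b rose by 2.67 in batch 1 and 0.98 in batch 2 on the log2 scale. Tlr2, a receptor for microbial lipoproteins, fell 4.47-fold and the chemokine Ccl2 2.11-fold. Lcn2, lipocalin-2 of the acute phase, had log2 differences of -0.22 in batch 1 and -1.65 in batch 2. Saa3, an acute-phase gene that IL-1 induces, had untreated log2 levels of 13.66, 13.66, 12.95 and 12.53 and treated levels of 12.79, 12.67, 8.29 and 8.57. It fell far more in batch 2 (-4.31) than in batch 1 (-0.93; adjusted p of the difference between batches 2.96e-05, limma). Of the 43 genes 12 had an effect that differed between the batches, and the neutrophil and marrow markers described below also differed between them. Their part in these values was not tested. Of 24 kept interferon and antigen presentation genes 3 rose and 3 fell (12.5% each way, beside 18.6% and 18.1% of all genes).

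Of 48 kept cell cycle genes 11 rose, a share of 22.9% near the 18.6% of all genes, 3 fell (6.25%, beside 18.1%) and 34 were not called. The larger changes were in regulators. Cdkn2b and Cdkn1c, inhibitors of the cell cycle, rose by 2.29 and 1.05 on the log2 scale, and Ccnd2, cyclin D2, fell by 1.46. Of the 3 other Ccnd2 probes 2 fell as well (-1.19 and -1.56) and 1 was not called (0.06), as log2 differences. Mki67, a marker of dividing cells, was not called (-0.17). Integrin, laminin and junction genes moved both ways, with 10 higher (33.3%) and 7 lower (23.3%) of 30 kept. Over all genes 18.6% rose and 18.1% fell. Of the 7 that fell, 3 did so by more than 2-fold. However, 3 of the 10 rises were kept only through their retinoic acid arrays, and among the other 27 genes 7 rose and 7 fell. Cldn11, a claudin that was undetected without treatment and kept only through its retinoic acid arrays, rose at least 3.41-fold. Krt7 rose by 1.93 on the log2 scale and was likewise kept through its retinoic acid arrays. Jup rose by 1.33 on the log2 scale, and its other probe was not called (-0.04).

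The markers of the labelled tissue were bright, since Col2a1, Acan, Comp and Matn1 had untreated log2 means of 13.59, 13.26, 13.88 and 13.36. Markers of other cells were present as well. The hemoglobin gene Hba-a1 had log2 means of 13.46 untreated and 13.60 treated, and the neutrophil and bone lists were detected on the untreated arrays. The summed linear level of the 8 kept chondrocyte markers was 62552 to 73264 on the untreated arrays and 10183 to 15388 with retinoic acid, and all 8 fell.  The 13 macrophage and osteoclast markers summed to 9243 to 11480 and 13150 to 16434. Of them 9 were higher (69.2%, beside 18.6% of all genes) and none lower, and 1 of the 9 was kept only through its retinoic acid arrays. The rises included C1qb (1.51), C1qa (1.25) and Cd14 (1.21) on the log2 scale. Markers of skeletal muscle fell from 1365 to 2653 down to 269 to 409, carried by Tnni2 (8.34-fold) and Tnnt3, with Ckm, Myh1 and Myh2 not kept. The part of these cell types in the results above was not tested.

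Of the 10 synovium, tendon and fibroblast markers 8 fell (80%) and 1 rose (10%), beside 18.1% and 18.6% of all genes. Their sum went from 17478 to 20041 down to 11952 to 15633. The 6 bone markers summed to 13730 to 21276 untreated and 9434 to 15807 treated, with 4 lower (66.7%) and 1 higher (16.7%). For the 10 endothelial markers 2 rose (20%) and 1 fell (10%), and Pecam1 was not called (-0.24). Of the 4 kept smooth muscle and pericyte markers 2 fell (50%) and none rose, while their sum was 3681 to 4006 untreated and 4005 to 4908 treated. Acta2, the brightest of the 4, was not called (0.51, adjusted p = 0.0746, limma), and its other probes were called in opposite directions (0.79 and -0.39). The adipocyte list had only Adipoq and Cfd kept, both lower. Epithelial and lymphocyte lists had 2 and 3 markers kept at low summed levels, at most 103 and 457.

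**Figure D5:**
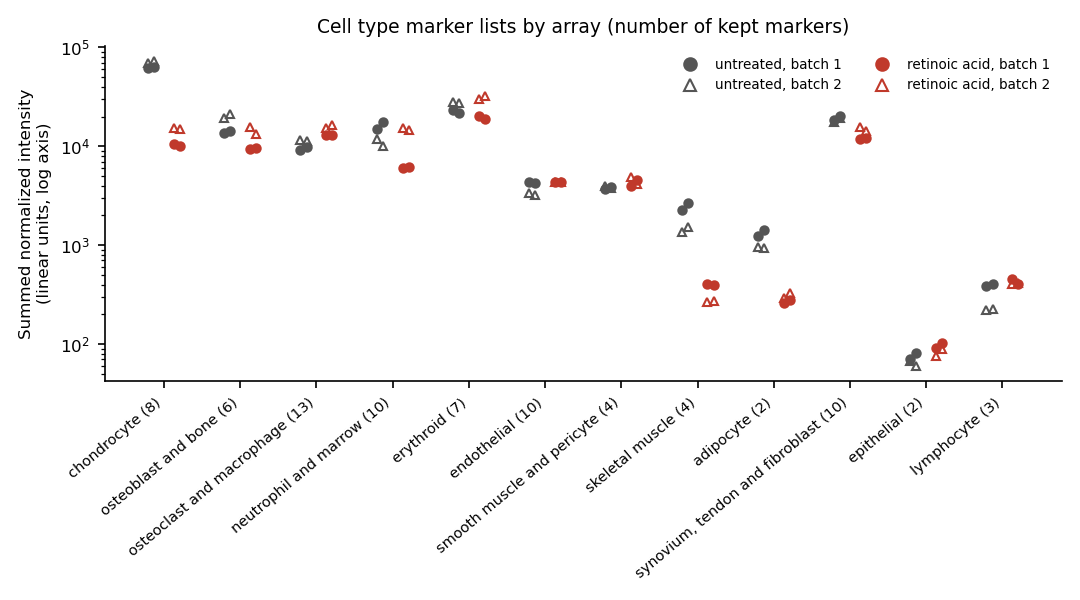
Summed normalized intensity (linear units on a log axis) of the kept markers of 12 cell type lists on the 4 untreated (grey) and 4 retinoic acid (red) arrays; circles are batch 1 and triangles batch 2. Chondrocyte markers are lower on all treated arrays, macrophage and osteoclast markers are higher, and neutrophil and marrow markers are lower with retinoic acid in batch 1 and higher in batch 2.

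The neutrophil and marrow markers differed between the batches. In the fit over both batches 6 of the 10 kept markers were called lower (60%, beside 18.1% of all genes) and none higher. The median log2 difference of these markers was -0.78. Their sum in batch 1 was 14890 to 17577 untreated and 6098 to 6150 treated, whereas in batch 2 it was 10006 to 11893 untreated and 14462 to 15364 treated. Mpo, a granule enzyme of neutrophils, had untreated log2 levels of 10.76, 10.94, 9.22 and 8.88 and treated levels of 7.24, 7.06, 8.52 and 8.57. The drop of Mpo was therefore mostly one of batch 1, -3.70 against -0.50 on the log2 scale. Of the 10 kept markers 8 had an effect that differed between the batches. Over all genes limma called such a difference for 367 (2.56%), of which 121 had opposite signs in the batches, and 151 of the genes over 2-fold were among them. That count leaned on single arrays. In probes it was 491, and without untreated batch 1 replicate 1 or 2 it was 191 or 167, without retinoic acid batch 1 replicate 1 or 2 it was 149 or 170, without retinoic acid batch 2 replicate 1 or 2 it was 184 or 212, and without IL-1α batch 2 replicate 1 or 2 it was 324 or 313. Where a gene is undetected or nearly so in 1 treatment, the difference between batches rests on the brighter group and is no size. This holds for Rarb, Stra6, Cemip, Ucma, Wnt2b and Cldn11.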

How the data were processed

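Transcripts of mouse femoral head explants were measured on 12 Illumina arrays with 1 colour, 4 per treatment. The deposited table, per the file headers, held for each probe and array a summarised probe intensity without normalization, and a detection score that runs from 0 to 1. The score rose with intensity, so 1 minus the deposited score was taken as the detection p-value. The labels name limma as the tool of the authors, with no version.

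Intensities were background-corrected and quantile-normalized with neqc in limma 3.58.1 (R 4.3.3, offset 16) and the filter asked for detection (p under 0.05) on 4 or more of the 12 arrays. Each probe was fitted with lmFit and eBayes on treatment with a 4-level block that joins batch and replicate number, as the methods of the study do, with Benjamini-Hochberg adjustment at 0.05 over the 18200 kept probes. A second fit added the interaction of treatment and batch. Where a gene had several probes after filtering, the one brightest on average stood for it. Probes undetected on all arrays of a group gave a bound against the lowest detected level. Replicate numbers did not pair the arrays, since deviations of arrays with the same number correlated at 0.062 in batch 1 and -0.108 in batch 2. The number of arrays limits the precision. The fit was tested on simulated data.

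Gene lists and members were chosen with earlier results of these data known. Named were the 5 genes Cyp26a1, Cyp26b1, Rarb, Dhrs3 and Acan, the 12 largest rises and 12 largest falls whose direction was shared by all 4 pairs of arrays of like batch and replicate number, the leading called members of each list, and a set of cartilage and retinoid genes; further genes were chosen after their values were seen. Values of 2 list members are not reported here, although the list counts include them. Alternatives covered background correction, scaling, offset, detection filter, array set, batch terms and leaving out each array.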

Additional observations from a re-analysis of the deposited data

Results flagged for a closer look

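Among the 187 named genes, 376 groups of 4 arrays, probe counts included, were examined for an array far from the other 3, and 9 stood out. Chance gives about 1 in 20 where the 4 arrays are alike, which would be more than 9 here. Each group joins arrays of both batches, so that rate need not hold. The 9 are listed as description only. Untreated batch 2 replicate 2 stood apart for Sox5 at a log2 level of 10.41, Tgfbi at 11.38 and Pparg at 6.44, and untreated batch 2 replicate 1 for Asb2 at 5.47. Untreated batch 1 replicate 1 stood apart for Cldn11 at 4.89 and Acta2 at 11.34. Retinoic acid batch 1 replicate 2 did so for Cmtm5 at 4.76, a level where the probe was undetected, retinoic acid batch 2 replicate 1 for Chst11 at 7.48 and retinoic acid batch 1 replicate 1 for Chrd at 6.64.

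For 22 named genes limma called a difference between the batches in the effect of retinoic acid, given here as the log2 effect in batch 2 minus that in batch 1. Values above 0 were 2.26 for Rarb, 0.86 for Stra6, 2.11 for Dio2, 1.07 for Col2a1, 0.87 for Col9a1, 0.87 for Fbln1, 1.42 for 9930013L23Rik (Cemip), 1.38 for Adamts1, 0.97 for Dkk3, 1.09 for Wnt2b, 0.83 for Cdkn2b and 3.20 for Mpo. Values below 0 were -1.35 for Col11a1, -1.19 for Fmod, -3.52 for 1110017I16Rik (Ucma), -0.94 for Mef2c, -1.49 for Mmp3, -1.85 for Slpi, -1.69 for Il1b, -3.38 for Saa3, -0.99 for Cldn11 and -1.43 for Lcn2. For Rarb, Stra6, Cemip, Ucma, Wnt2b and Cldn11 these values are no sizes, since 1 treatment was undetected or nearly so. The batches also differ in the mouse line.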

How the results depend on the processing

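Of 173 named genes called, none changed direction under any alternative, 40 lost the call with treatment alone in the model and 13 lost it under at least 1 other alternative. Without batch and replicate terms 2215 probes, 894 genes higher and 989 lower were called. Median scaling gave 1501 genes lower, and members called lower changed from 29 to 17 for the chaperone list, 8 to 5 for ribosomal proteins, 8 to 5 for synovium, tendon and fibroblast markers, 5 to 3 for Hox genes, 5 to 3 for retinoid receptors and synthesis and 3 to 1 for the cell cycle. An offset of 50 left 418 genes over 2-fold higher and 479 lower. Keeping only probes detected on all 8 arrays left 483 genes over 2-fold lower and 128 probes with a batch difference, which were 229 with the 8 arrays fitted alone. The same filter left 3 retinoic acid targets called higher, since it removes genes undetected without treatment, and it gave 1 cholesterol gene lower, as did the offset of 50. Leaving out each array in turn gave 5149 to 6472 probes, 2094 to 2719 genes higher and 2102 to 2606 lower, 563 to 661 over 2-fold higher and 718 to 788 lower, and 149 to 684 probes with a batch difference. With batch kept and no replicate block 6752 probes were called, 521 with a batch difference, beside 6436 and 491 with the block. Crossing the replicate numbers of batch 2, chosen after seeing the data, gave 6291 and 463. Dim probes limit the sizes at the low end and the highest intensities at the other.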
